A study of Mus musculus with 10 samples.

Results

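The inflammatory CC chemokines described here are Ccl2, Ccl3, Ccl4, Ccl5, Ccl6, Ccl7, Ccl8, Ccl9 and Ccl12. They were chosen by gene symbol, as the 9 rows with these names among 54987 gene rows, and all 9 passed the filter on low values (at least 0.5 FPKM in at least 3 libraries). RNA was sequenced from the popliteal lymph node, which drains the hind paw, on day 15. Every mouse is labelled as a male BALB/c of 6 to 8 weeks. In Control (3 libraries, numbered 15, 16 and 17) the right hind paw was injected with saline. In AIA (4 libraries, 5, 10, 31 and 38) it was injected with 0.1 ml of complete Freund's adjuvant, killed mycobacteria in oil. In Acu (3 libraries, 4, 6 and 28) the adjuvant was combined with acupuncture, at the point ST36 per the series title. A sham acupuncture group that the protocol mentions was not analysed here. The labels do not say which side the node came from, whether nodes were pooled, or that each library is a mouse of its own, so the p-values speak for the spread among libraries, which may be technical.

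CC chemokines are small secreted proteins that draw leukocytes along a gradient through receptors of the CCR family. The inflammatory ones are made on demand by macrophages, stroma, neutrophils and activated lymphocytes, largely under NF-kB and interferon signalling, whereas homeostatic ones such as Ccl19 and Ccl21a are made steadily in lymph nodes to guide T cells and dendritic cells. Ccl2, Ccl7 and Ccl12 act mainly on Ccr2 and call monocytes out of the blood, and mouse Ccl8 acts on Ccr8. Ccl3, Ccl4 and Ccl5 draw monocytes, T cells and NK cells, and Ccl3 and Ccl5 act on Ccr1 among others, while Ccl6 and Ccl9 are rodent chemokines that act on Ccr1.

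Levels are in FPKM, fragments per kilobase of gene length, on a scale shared by the libraries. Differences are in log2(FPKM + 1) from a limma fit to all genes, called where the adjusted p was under 0.05. Several libraries stood apart from the others in genes other than the chemokines. Read totals, recovered from the steps between FPKM values, ran from 13269763 to 18926894. AIA 10 had the lowest total and 15116 genes above 0, against 21224 to 24411 in the other libraries. All 10 decidua and uterus genes examined were above 1 FPKM in the libraries labelled Control 17 and Acu 4, although the mice are labelled male. Lymphocyte genes, which define the labelled tissue, were nearly missing from 3 libraries: of 6 B cell genes, 2 were above 1 FPKM in Control 15, and 0 and 1 in the libraries labelled Control 17 and Acu 4, against 6 in each of the other libraries. Control 15 and Control 16 also held fat and muscle RNA, with adipocyte genes at a mean log2(FPKM + 1) of 9.82 and 7.87, against 1.503 to 3.684 in AIA. Their muscle genes averaged 7.23 and 9.12, against 0.903 to 6.45 in AIA and 1.28 to 7.02 in Acu. Results below are therefore given with all libraries, without the libraries labelled Control 17 and Acu 4, and where a call changed, also without Control 15. In bulk tissue, fewer cells of a type and less RNA per cell cannot be told apart.

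The 9 genes lie on chromosome 11 of mm10 in a pair of clusters that are 1409 kb apart. Ccl2, Ccl7, Ccl12 and Ccl8 lie in that order on the plus strand within 81.2 kb (82035571 to 82116799). Ccl5, Ccl9, Ccl6, Ccl3 and Ccl4 lie within 138.9 kb (83525778 to 83664683), of which Ccl4 is on the plus strand and the other 4 are on the minus strand. Between 6 reads (Ccl7 in Control 15) and 3249 reads (Ccl8 in AIA 10) stood behind each value. Of all the 50-base stretches in the annotated transcripts of these genes, those of 8 members occurred in no other gene, whereas 59 of 2996 in Ccl9 (1.97%) did. The sources used here do not say if counting used strand. Ccl6 overlaps E230016K23Rik on the other strand, which reached 0.424 FPKM, and Ccl2 overlaps Gm17268, listed at 0 in every library.

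Promoters were read from RefSeq (GRCm38.p6) for the 5 members its table holds: Ccl3, Ccl6, Ccl8, Ccl9 and Ccl12. Those of Ccl8 and Ccl12 are shown because these members had the largest differences between AIA and Control, and that of Ccl9 because it held the most motif matches. Each is the 250 bases before the gene's start, 5′ to 3′ on the gene's strand, with motif matches in capitals: chr11:82101595-82101844 (plus strand) for Ccl12, chr11:82114935-82115184 (plus strand) for Ccl8 and chr11:83578637-83578886 (minus strand) for Ccl9.
Ccl12: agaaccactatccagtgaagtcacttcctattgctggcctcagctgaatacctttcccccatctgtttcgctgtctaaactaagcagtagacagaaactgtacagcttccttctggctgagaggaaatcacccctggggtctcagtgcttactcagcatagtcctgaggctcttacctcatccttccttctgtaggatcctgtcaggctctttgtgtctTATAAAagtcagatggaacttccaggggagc
Ccl8: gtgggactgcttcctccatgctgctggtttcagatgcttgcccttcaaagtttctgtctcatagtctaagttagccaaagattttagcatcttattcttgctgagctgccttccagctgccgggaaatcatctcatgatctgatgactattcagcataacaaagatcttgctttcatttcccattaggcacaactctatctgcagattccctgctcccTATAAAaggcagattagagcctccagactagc
Ccl9: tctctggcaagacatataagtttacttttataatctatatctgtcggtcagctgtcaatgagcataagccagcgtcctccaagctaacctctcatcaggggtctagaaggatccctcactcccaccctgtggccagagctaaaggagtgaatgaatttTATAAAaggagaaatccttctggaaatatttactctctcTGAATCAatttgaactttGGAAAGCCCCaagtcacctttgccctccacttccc
The motif TATAAA, searched on the gene's strand, began 31 bases before the start in Ccl12, 32 in Ccl8 and 92 in Ccl9. The other motifs were searched on both strands. The AP-1 motif TGANTCA lay 53 to 47 bases before the start of Ccl9, and a match to the NF-kB consensus lay 35 to 26 bases before it on the opposite strand. No other match to these motifs, to the core of the interferon-stimulated response element or to the STAT motif TTCNNNGAA was found in the 5 windows, and no 2 matches overlapped. Among 32841 RefSeq windows of this length, 7.59% held TATAAA, 6.75% the AP-1 motif, 7.25% the NF-kB consensus, 2.98% that interferon core and 7.02% TTCNNNGAA. A match is a run of letters and was not tested as a site.

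The comparison of AIA with Control asks what followed the adjuvant in the popliteal node, of a side that the labels do not give. With all libraries 6 of the 9 chemokines had every AIA library above every Control library (11.4% of all genes tested did), but none passed the test (0.0235% of genes did), and the 4 genes of the Ccl2 cluster came closest. With the libraries labelled Control 17 and Acu 4 left out, Ccl2, Ccl7, Ccl12, Ccl8, Ccl3 and Ccl4 rose, 6 of 9 against 4.36% of genes, and no member fell. On the scale of log2(FPKM + 1) these 6 rises ran from 2.20 to 4.61.

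Ccl2, the main ligand that draws Ccr2+ monocytes, was at 0.748, 1.02 and 2.63 FPKM in Control 15, 16 and 17. In AIA 5, 10, 31 and 38 it was at 18.6, 34.7, 12.9 and 31.3 FPKM, and in Acu 4, 6 and 28 at 7.45, 20.0 and 23.0 FPKM. Every adjuvant library was therefore above every Control library, and the highest Control value was that of the library labelled Control 17. The mean was 1.47 ± 1.02 FPKM in Control (SD, n = 3) and 24.4 ± 10.4 FPKM in AIA (SD, n = 4), a ratio of 16.6. The log2 difference was 3.34 (SE 0.49), with a limma adjusted p of 0.0546. Without the libraries labelled Control 17 and Acu 4 it was 3.65 (SE 0.42, limma adjusted p = 0.00307).

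Ccl7, which shares Ccr2 with Ccl2, was at 0.456, 0.889 and 5.20 FPKM in Control 15, 16 and 17. It was at 12.5, 61.0, 13.0 and 34.7 FPKM in AIA 5, 10, 31 and 38, and at 11.1, 16.9 and 16.6 FPKM in Acu 4, 6 and 28. The library labelled Control 17 was again the highest Control library, and AIA 10 the highest of all. AIA stood 3.30 higher than Control (SE 0.64, limma adjusted p = 0.0637), and 3.94 higher without the libraries labelled Control 17 and Acu 4 (SE 0.61, limma adjusted p = 0.00705). When these were left out the ratio of the group means moved from 13.9 to 45.1, and the mean of Control from 2.18 to 0.672 FPKM. The call of Ccl7 was lost with Control 15 left out too.

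Ccl12, a mouse relative of Ccl2 that also acts on Ccr2, was at 2.38, 0.964 and 3.64 FPKM in Control 15, 16 and 17. The 4 AIA libraries, in the order 5, 10, 31 and 38, held 30.1, 127, 23.9 and 81.2 FPKM, and Acu 4, 6 and 28 held 9.24, 29.7 and 19.6 FPKM. No Control value reached the lowest adjuvant value. The means were 2.33 ± 1.34 FPKM in Control (SD, n = 3) and 65.6 ± 48.4 FPKM in AIA (SD, n = 4), a ratio of 28.2, the highest of the 9 with all libraries. The log2 difference was 4.09 (SE 0.63, limma adjusted p = 0.0546), and 4.37 without the libraries labelled Control 17 and Acu 4 (SE 0.67, limma adjusted p = 0.00664).

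Ccl8, the most abundant member in AIA, was at 3.69, 16.3 and 11.1 FPKM in Control 15, 16 and 17. It was at 292, 561, 75.9 and 186 FPKM in AIA 5, 10, 31 and 38, and at 77.3, 73.9 and 118 FPKM in Acu 4, 6 and 28. AIA 31 lay among the Acu values, while the other 3 AIA libraries were above all of them. The mean was 10.4 ± 6.35 FPKM in Control (SD, n = 3) and 279 ± 208 FPKM in AIA (SD, n = 4), a ratio of 26.9. AIA stood 4.47 higher (SE 0.67, limma adjusted p = 0.0546). It stood 4.61 higher without the libraries labelled Control 17 and Acu 4 (SE 0.81, limma adjusted p = 0.0106). The call of Ccl8 was lost with Control 15 left out too.

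**Figure D1:**
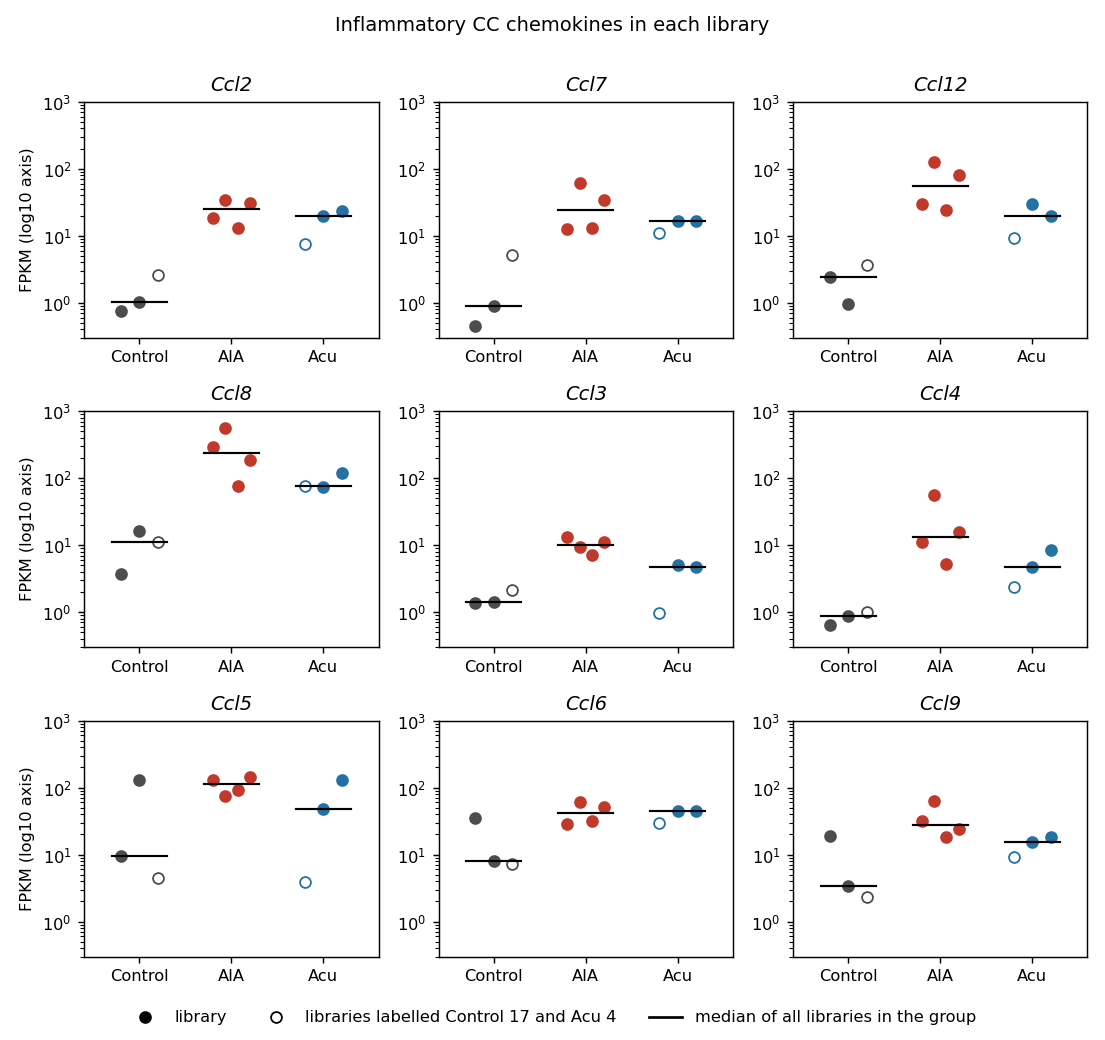
Each panel plots the FPKM of 1 chemokine on a log10 axis for the 10 libraries in 3 groups, with open circles for the libraries labelled Control 17 and Acu 4 and a line at the group median. In the panels of Ccl2, Ccl7, Ccl12, Ccl8, Ccl3 and Ccl4 every AIA point lies above every Control point, while in those of Ccl5, Ccl6 and Ccl9 a Control point lies among the AIA points.

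Ccl3 and Ccl4 are neighbours transcribed away from a common region on opposite strands. Ccl3 was at 1.35, 1.44 and 2.13 FPKM in Control 15, 16 and 17. It was at 13.4, 9.44, 7.13 and 10.98 FPKM in AIA 5, 10, 31 and 38, and at 0.984, 5.02 and 4.68 FPKM in Acu 4, 6 and 28. It varied least among the AIA libraries of all 9 members relative to its mean, at 10.2 ± 2.65 FPKM (SD, n = 4). AIA stood 2.07 above Control (SE 0.42, limma adjusted p = 0.0639), and 2.20 above it without the libraries labelled Control 17 and Acu 4 (SE 0.30, limma adjusted p = 0.00425).

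Ccl4 was at 0.645, 0.883 and 0.987 FPKM in Control 15, 16 and 17, resting on 7, 9 and 10 reads. In AIA 5, 10, 31 and 38 it was at 11.3, 56.5, 5.20 and 15.5 FPKM, and in Acu 4, 6 and 28 at 2.38, 4.71 and 8.38 FPKM. AIA 10 was the only AIA library above 16 FPKM and made the SD (23.3 FPKM) larger than the mean (22.1 FPKM, n = 4). The difference was 3.16 (SE 0.66, limma adjusted p = 0.0639), and 3.22 without the libraries labelled Control 17 and Acu 4 (SE 0.75, limma adjusted p = 0.0283). The ratio of Ccl4 to its neighbour Ccl3 in FPKM was 5.99 in AIA 10 and 0.730 to 1.41 in the other AIA libraries. The call of Ccl4 was lost with Control 15 left out too.

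Ccl5, which activated T cells and NK cells make in quantity, differed within groups as well as between them. It was at 9.44, 131 and 4.48 FPKM in Control 15, 16 and 17, at 131, 74.0, 92.7 and 142 FPKM in AIA 5, 10, 31 and 38, and at 3.93, 48.2 and 131 FPKM in Acu 4, 6 and 28. The 3 low values were those of Control 15 and of the libraries labelled Control 17 and Acu 4, and Control 16 was within the AIA range. The difference between AIA and Control was 2.45 (SE 1.22, limma adjusted p = 0.235). It was 1.53 without the libraries labelled Control 17 and Acu 4 (SE 0.91, limma adjusted p = 0.297), and -0.30 when Control 15 was left out as well. The mean log2(FPKM + 1) of 8 T cell genes was 0.593, 0.472 and 0.660 in the 3 libraries with low Ccl5, and 4.85 to 5.63 in the other 7. Of these 8 genes 1, 1 and 3 were above 1 FPKM in those 3 libraries, and 8 in each of the others. Summed, they ran from 3.42 to 240.6 FPKM in Control, from 359 to 429 FPKM in AIA and from 5.75 to 355 FPKM in Acu, and none was at 0. The mean of 8 NK and cytotoxic genes was 1.29, 1.90 and 4.57 in Control 15, 16 and 17, 2.96 to 4.17 in AIA and 2.90 to 3.16 in Acu. It was highest in the library labelled Control 17, where Ccl5 was low and the granule genes Gzmb and Prf1 were at 496 and 529 FPKM. Klrb1c and Eomes were also above every AIA library there, and Gzma lay within the AIA range. Nkg7, Ncr1 and Klrk1, at 25.2, 3.43 and 0.381 FPKM there, were below every AIA library. The part of either list in the values of Ccl5 was not tested.

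**Figure D2:**
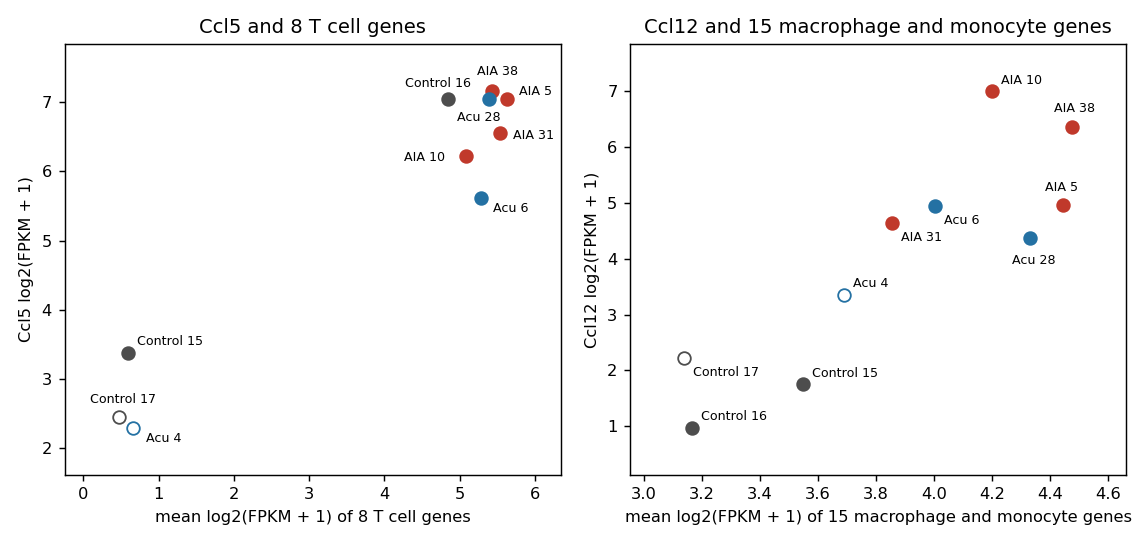
The left panel plots Ccl5 and the right panel Ccl12, as log2(FPKM + 1), against the mean log2(FPKM + 1) of 8 T cell genes and of 15 macrophage and monocyte genes, with 1 point per library coloured by group (grey for Control, red for AIA, blue for Acu, open for the libraries labelled Control 17 and Acu 4). Control 15 and the libraries labelled Control 17 and Acu 4 lie low for Ccl5 and T cell genes, and the 3 Control libraries lie lowest on both axes of the right panel.

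Ccl6 and Ccl9, the rodent chemokines that attract macrophages and neutrophils through Ccr1, were high in Control 15 as well as after adjuvant. Ccl6 was at 35.01, 7.97 and 7.33 FPKM in Control 15, 16 and 17, at 29.0, 60.2, 32.2 and 50.7 FPKM in AIA 5, 10, 31 and 38, and at 29.99, 44.6 and 44.8 FPKM in Acu 4, 6 and 28. Ccl9 was at 19.0, 3.34 and 2.31 FPKM in the Control libraries in the same order, at 32.0, 63.4, 18.5 and 24.2 FPKM in AIA, and at 9.34, 15.3 and 18.5 FPKM in Acu. In both genes Control 15 was above 1 or more AIA libraries, so the groups overlapped. AIA stood 1.60 above Control for Ccl6 (SE 0.52, limma adjusted p = 0.119) and 2.28 for Ccl9 (SE 0.64, limma adjusted p = 0.0929). Without the libraries labelled Control 17 and Acu 4 these were 1.23 (SE 0.56, limma adjusted p = 0.182) and 1.78 (SE 0.66, limma adjusted p = 0.111). With Control 15 left out too they were 2.23 and 2.88, and neither was called. Every AIA value of both genes was above that of Control 16, the lone Control library left. The same held for 3945 of the 15653 genes tested there.

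Counted together, 0 of the 9 members passed the threshold of 0.05 on limma's adjusted p between AIA and Control with all libraries, where 4 of the 17010 genes tested did (0.0235%). At an unadjusted p under 0.05 there were 8 of 9, against 25% of genes, and a voom fit to the recovered reads called 0 members. AIA did not overlap Control and was higher for 6 of 9 members, against 11.4% of genes. The median log2 difference was 3.16 over the members and -0.07 over all genes tested. Without the libraries labelled Control 17 and Acu 4, limma called 6 of 9 members higher (voom called 3), against 4.36% of 16067 genes called higher (13.4% in either direction). Without Control 15 too, which left Control 16 as the lone Control library, assumed to vary like the other groups, it called 3 of 9 higher (Ccl2, Ccl3 and Ccl12), against 0.466% of genes. Ccl7, Ccl8 and Ccl4 differed by 3.75, 3.67 and 3.12 there and were not called (limma adjusted p = 0.0719, 0.115 and 0.206). Leaving out AIA 10 beside the libraries labelled Control 17 and Acu 4 gave 6 of 9, against 9.25% of genes.

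**Figure D3:**
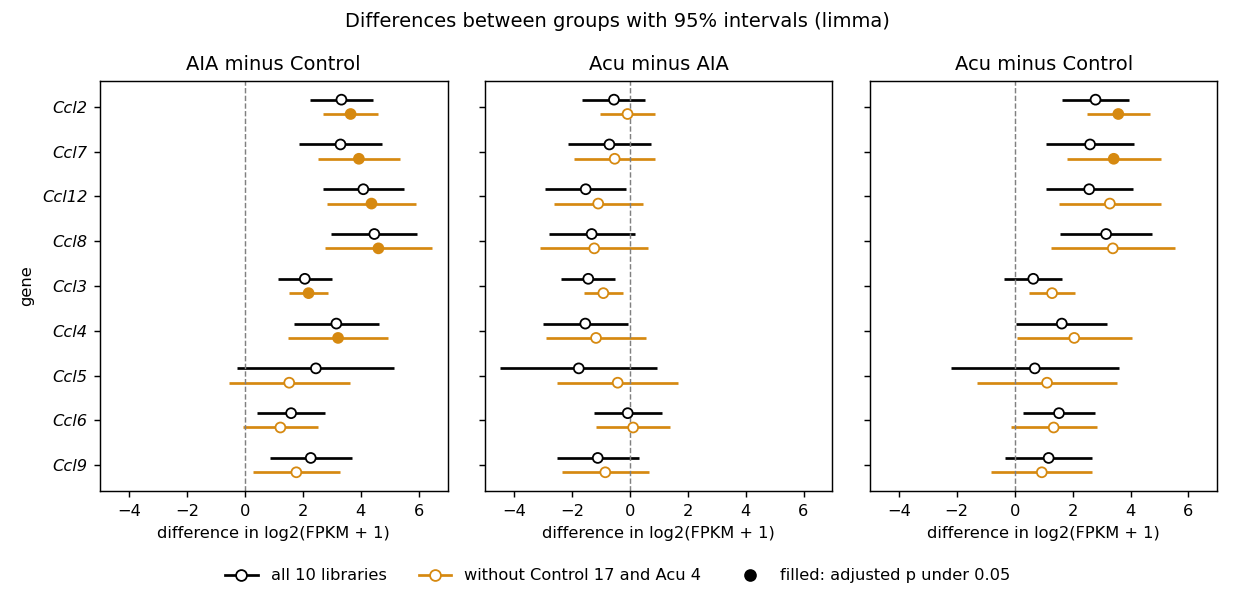
Points are limma's differences between groups in log2(FPKM + 1) for the 9 chemokines and bars are 95% intervals, in black with all 10 libraries and in orange without the libraries labelled Control 17 and Acu 4, filled where the adjusted p was under 0.05. The 6 filled points of the left panel lie between 2.20 and 4.61, the middle panel has none, and the right panel has those of Ccl2 and Ccl7.

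Acu was compared with AIA to ask what acupuncture changed in adjuvant-injected mice. All 9 chemokines were lower in Acu in the fit with all libraries, as were 7527 of the 17010 genes. They were lower by 0.07 (Ccl6) to 1.76 (Ccl5) on the log2 scale. No member passed the test: limma's adjusted p ran from 0.746 to 0.969. Of the 17010 genes 0% were called (0 of 9 members), 4.7% had an unadjusted p under 0.05 and the members with such a p were Ccl3, Ccl12 and Ccl4. Voom on the recovered reads also called 0 members.

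Ccl3 had the smallest p of the members, with means of 3.56 ± 2.24 FPKM in Acu (SD, n = 3) and 10.2 ± 2.65 FPKM in AIA (SD, n = 4). Its difference was -1.43 (SE 0.42, 95% interval -2.37 to -0.50, limma adjusted p = 0.746), and -0.91 without the libraries labelled Control 17 and Acu 4 (95% interval -1.60 to -0.23, limma adjusted p = 0.984). Ccl3 and Ccl9 were the 2 members whose Acu values all lay below AIA, against 5.1% of genes, and for Ccl9 the gap was from 18.45 in Acu 28 to 18.49 FPKM in AIA 31. Ccl12 stood 1.52 lower in Acu (95% interval -2.92 to -0.12) and Ccl4 1.54 lower (95% interval -3.01 to -0.06). The interval of Ccl8 ran from -2.80 to 0.17, of Ccl9 from -2.52 to 0.31 and of Ccl5 from -4.47 to 0.95. Those of Ccl7 (-2.13 to 0.73), Ccl2 (-1.63 to 0.54) and Ccl6 (-1.24 to 1.10) were centred nearer 0.

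The library labelled Acu 4 had the lowest Acu value of 8 members, all but Ccl8. Without the libraries labelled Control 17 and Acu 4, 8 of 9 members were lower in Acu and Ccl6 was higher, with a median difference of -0.84, against 0.06 over all genes tested there, and -1.32 for the members with all libraries. The difference of Ccl5 went from -1.76 to -0.42 and that of Ccl2 from -0.55 to -0.08. No member passed the test in either case (0% of the 16067 genes without them), and the intervals for Ccl8 (-3.08 to 0.63) and Ccl12 (-2.62 to 0.44) included 0.

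Acu was compared with Control to ask how far the treated nodes stood from those of saline-injected mice. This comparison shares the Control libraries with that of AIA, so their values are not independent. All 9 members stood higher in Acu, with a median log2 difference of 1.63, against 0.02 over all genes tested, and 0 of 9 passed the test (0% of 17010 genes; 6 of 9 members and 7.5% of genes at an unadjusted p under 0.05; voom called 0 members). Acu was above Control without overlap for 5 members (Ccl2, Ccl7, Ccl12, Ccl8 and Ccl4), against 4.87% of genes. The largest difference was that of Ccl8, 3.16 (SE 0.71, limma adjusted p = 0.488), followed by Ccl2 with 2.79 (SE 0.52, limma adjusted p = 0.398). Without the libraries labelled Control 17 and Acu 4, Ccl2 rose by 3.58 (SE 0.48, limma adjusted p = 0.0157) and Ccl7 by 3.42 (SE 0.71, limma adjusted p = 0.0372), 2 of 9 members against 0.878% of genes called higher. Ccl12, at 3.29, had a limma adjusted p of 0.0533 there. With Control 15 left out too no member was called (0% of 15653 genes), and 6 of 9 had an unadjusted p under 0.05, against 12.3% of genes. The members' median difference was 2.35 there, with the highest, that of Ccl12, at 3.68. With AIA 10 left out in its place, a setting added after seeing the data, 6 of 9 were called, against 5.39% of genes called higher. AIA 10 is in neither group compared, so the differences themselves did not change. Only the spread, shared over the 3 groups, became smaller: the SE of Ccl4 went from 0.870 to 0.479 at a difference of 2.06.

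FPKM is per length of gene, so levels can be set side by side between members. Summed over the 9 chemokines it was 72.7, 164 and 39.8 FPKM in Control 15, 16 and 17, 570, 1047, 281 and 577 FPKM in AIA 5, 10, 31 and 38, and 152, 258 and 384 FPKM in Acu 4, 6 and 28. The sum in AIA 31 lay within the Acu range. AIA 10 was the library with the highest value for 7 members. Ccl8 led in 6 libraries, Ccl5 in Control 16, AIA 31 and Acu 28, and Ccl6 in Control 15.

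**Figure D4:**
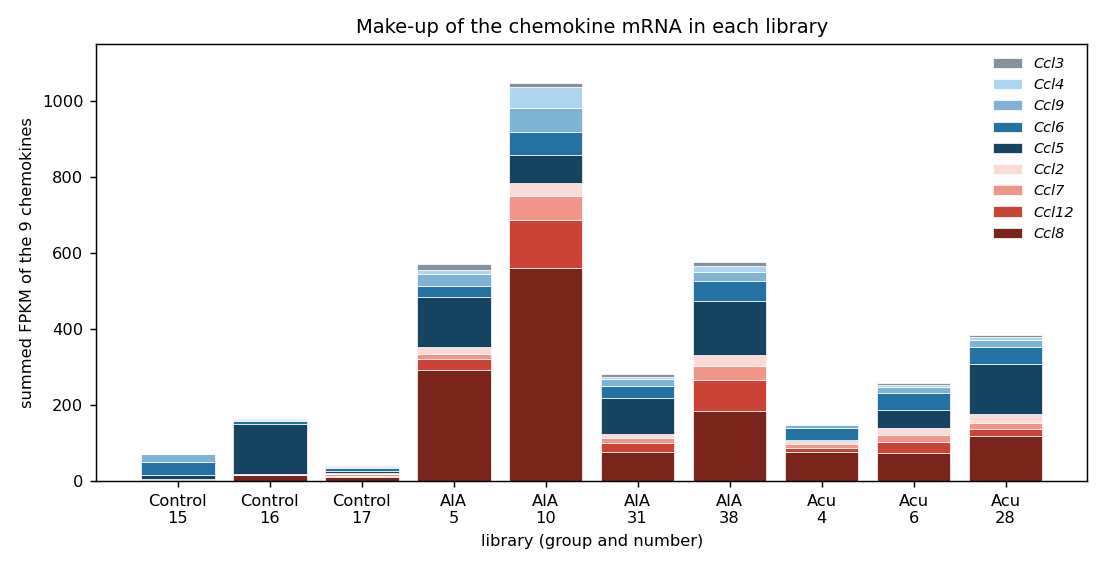
Bars stack the FPKM of the 9 chemokines in each library, with the Ccl2 cluster in reds at the bottom and the other members in blues and grey above. Ccl8 makes up 51.2% and 53.6% of AIA 5 and AIA 10, while Ccl5 makes up 79.9% of Control 16.

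The 4 genes of the Ccl2 cluster made up 10.01%, 11.75% and 56.7% of this sum in Control 15, 16 and 17. They made up 61.9%, 74.8%, 44.7% and 57.8% in AIA 5, 10, 31 and 38, and 69.3%, 54.4% and 46.1% in Acu 4, 6 and 28. The library labelled Control 17 was thus like the adjuvant libraries in this share while having the lowest sum. By mean FPKM the order in AIA was Ccl8, Ccl5, Ccl12, Ccl6, Ccl9, Ccl7, Ccl2, Ccl4 and Ccl3, and the ranges of all 8 neighbouring pairs overlapped. In Acu it was Ccl8, Ccl5, Ccl6, Ccl12, Ccl2, Ccl7, Ccl9, Ccl4 and Ccl3, and 6 of 8 neighbouring pairs overlapped: Ccl6 was above Ccl12, and Ccl9 above Ccl4, in ranges that did not meet. In Control the order began with Ccl5, Ccl6 and Ccl8 and ended with Ccl4, and all 8 pairs overlapped. Within the Ccl2 cluster the ratio of Ccl12 to Ccl2 was 1.62 to 3.66 in AIA and 0.850 to 1.49 in Acu, a contrast noticed after the values were seen and not tested. In Control 15, 16 and 17 it was 3.18, 0.942 and 1.38, which spans both groups, and the ratio of Ccl7 to Ccl2 overlapped between AIA (0.674 to 1.76) and Acu (0.721 to 1.49).

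Of the 9 receptors and scavengers listed for these ligands, 7 passed the filter. None was called between AIA and Control with all libraries, and 4 of 7 rose without the libraries labelled Control 17 and Acu 4, against 4.36% of genes, with Ccr1, Ccr2 and Ccrl2 among them. Ccr2, the receptor of Ccl2, Ccl7 and Ccl12, was at 3.66, 2.54 and 2.601 FPKM in Control 15, 16 and 17, at 11.9, 11.5, 6.67 and 8.84 FPKM in AIA 5, 10, 31 and 38, and at 2.61, 5.15 and 7.89 FPKM in Acu 4, 6 and 28. It rose by 1.37 (limma adjusted p = 0.0315), and Ccr1 by 1.76 (limma adjusted p = 0.0252). Ccrl2, a receptor that holds chemoattractants without signalling, rose by 1.83 (limma adjusted p = 0.0171). Ackr1, which binds chemokines on vessels, was lower by 0.39 (limma adjusted p = 0.433). Ccr8, the receptor of mouse Ccl8, was at 0 in Control 15, AIA 10 and the libraries labelled Control 17 and Acu 4. It was at most 3.004 FPKM elsewhere. Between Acu and AIA none of the 7 was called with or without those libraries. With Control 15 left out too the rises between AIA and Control were no longer called, with a median difference of 1.46 over the 7.

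The other CC chemokines on the list are mostly homeostatic or act on eosinophils and skin-homing cells. Of 12 listed, 9 passed the filter with all libraries and 8 without those labelled Control 17 and Acu 4, and the median difference between AIA and Control was 0.06 and 0.09. Without them 0 rose (4.36% of genes did). Ccl24, which draws eosinophils, fell by 1.69 (limma adjusted p = 0.0463), 1 of 8 against 1455 of 16067 genes called lower. Ccl11, an eosinophil chemokine that lies between Ccl7 and Ccl12 in the Ccl2 cluster, was at 58.3, 17.3 and 0 FPKM in Control 15, 16 and 17, at 5.93 to 20.3 FPKM in AIA and at 1.34 to 6.26 FPKM in Acu. Its difference between AIA and Control was 0.06 with all libraries and -1.62 without those labelled Control 17 and Acu 4 (limma adjusted p = 0.978 and 0.0994). Ccl21a, a homeostatic T zone chemokine, has near-identical copies and a second row that was not used here, so its level is uncertain. In the row used it was at most 0.967 FPKM in the Control libraries, and AIA ran from 0.947 to 62.3 FPKM. Ccl22, made by dendritic cells, ran from 0.262 to 27.6 FPKM in Control and from 18.1 to 31.3 FPKM in AIA. Ccl27a, a skin chemokine, was at 40.7 and 8.83 FPKM in the libraries labelled Control 17 and Acu 4, and at most 0.844 FPKM elsewhere.

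Of 8 inflammatory CXC chemokines 7 passed the filter, and all 7 stood higher in AIA than in Control with all libraries (median 2.69, 0 called), and without the libraries labelled Control 17 and Acu 4 limma called 5 of 7 higher, against 4.36% of genes. These were Cxcl5, a neutrophil chemokine (3.57), the Cxcr3 ligands Cxcl10 (3.35), Cxcl11 (2.43) and Cxcl9 (2.42), and Cxcl16 (2.28), with limma adjusted p from 0.0128 to 0.0396. With Control 15 left out too these rises were no longer called, with a median difference of 2.29 over the 7.

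Cytokines that induce chemokines were tested for 6 of 9 listed, the other 3 being too low. Il1b, the macrophage cytokine, was at 0.0638, 0.611 and 0.273 FPKM in Control 15, 16 and 17, at 24.7, 32.8, 9.27 and 14.7 FPKM in AIA 5, 10, 31 and 38, and at 0.560, 8.64 and 9.25 FPKM in Acu 4, 6 and 28. It was the only one of the 6 called without the libraries labelled Control 17 and Acu 4, higher by 3.89 in AIA (limma adjusted p = 0.00332) and by 2.92 in Acu (limma adjusted p = 0.0290) than in Control. Tnf was at 0.483, 11.7 and 0.477 FPKM in Control 15, 16 and 17 and at 10.1 to 15.1 FPKM in AIA, Il1a at 0.0308 to 1.12 and 1.03 to 8.91 FPKM. Csf1, a macrophage growth factor, reached 269 FPKM in the library labelled Acu 4 and 6.02 to 14.5 FPKM in the others. Of 11 NF-kB genes 1 was called there, the adhesion molecule Vcam1. It was higher by 2.40 in AIA (limma adjusted p = 0.00501) and by 2.40 in Acu (limma adjusted p = 0.0203) than in Control. Of all genes, 4.36% were called higher in AIA and 0.878% in Acu in that setting, beside 1 of 6 and 1 of 11 here. The subunits and inhibitors of NF-kB were not called: Rela differed by -0.10, Nfkb2 by 0.99, Nfkbia by -0.23 and Nfkbie by 2.17 between AIA and Control. Between Acu and AIA no gene of these lists was called, with or without those libraries. With Control 15 left out too, 0 receptors, 0 other CC chemokines and 0 CXC chemokines were called between AIA and Control, and 1 inducing cytokine (Il1b) and 1 NF-kB gene (Vcam1) rose, against 0.466% of genes. Between Acu and Control no gene was called in that setting (0% of 15653), where Il1b differed by 2.63 (limma adjusted p = 0.194) and Vcam1 by 2.17 (limma adjusted p = 0.123).

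Macrophages and monocytes are both a source and a target of these chemokines. With all libraries 11 of 15 genes that mark them stood higher in AIA than in Control, against 7911 of 17010 genes. None of the 15 was called, and Mrc1 and Cd163 were among the 4 that stood lower. The mean log2(FPKM + 1) of the 15 genes was 3.14 to 3.55 in Control, 3.86 to 4.48 in AIA and 3.69 to 4.33 in Acu, and their summed level was 547 to 640, 2156 to 3583 and 692 to 3099 FPKM. Lyz2, a lysozyme gene, carried most of the difference in the sum, with Control libraries at 93.3 to 436 FPKM and AIA libraries at 1739 to 2939 FPKM. The other 14 genes summed to 149 to 454 FPKM across Control libraries, a range that overlapped the 417 to 770 FPKM of AIA. Between 12 and 14 of the 15 were above 1 FPKM in each library, and Marco was at 0 in 1 library. Without the libraries labelled Control 17 and Acu 4, 5 of the 15 rose in AIA and 1 fell (4.36% of genes rose and 1455 of 16067 fell). When Control 15 was left out too the rises were no longer called, with a median difference of 1.51 over the 15. Neutrophil genes, 10 in all, averaged 0.663 to 1.40 in Control, 1.70 to 4.59 in AIA and 1.48 to 2.56 in Acu, summed to 7.85 to 461, 68.8 to 715 and 39.8 to 249 FPKM, and 4 of them (Camp, Elane, Ltf and Ly6g) were at 0 in at least 1 library. The part of these cells in the chemokine values was not tested.

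Each gene's log2(FPKM + 1), centred and divided by its SD over the 10 libraries, was compared with the mean profile of the 9 chemokines by the root mean square difference, among 12032 genes with a mean of at least 1 FPKM. Among the 6 nearest genes were Lig1 (0.237), Cdca3 (0.238), Il1b (0.258), Cdk1 (0.272) and Kif2c (0.275), where the median gene was at 1.35. Lig1 joins DNA in replication, and Cdca3, Cdk1 and Kif2c act in mitosis. Among the members themselves, which are part of that mean profile, Ccl12 (0.240), Ccl4 (0.274) and Ccl2 (0.292) were nearest to it and Ccl5 (0.778) was farthest. Lig1 was at 2.20 to 2.82 FPKM in Control, 11.1 to 27.1 FPKM in AIA with its highest value in AIA 10, and 3.41 FPKM in the library labelled Acu 4 against 14.1 and 11.3 FPKM in Acu 6 and 28. The 10 points share their libraries, so this likeness is a description.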

How the data were processed

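RNA from 10 popliteal lymph node libraries was sequenced after Trizol extraction and NEBNext Ultra library preparation, per the labels' protocols. The submitters' processing notes name DESeq2 1.16.1, featureCounts 1.5.0-p3, StringTie 1.3.3b and HISAT2 2.0.5, with mm10 as the build, and give them no order. The file the authors deposited holds FPKM, fragments per kilobase of gene length scaled between libraries, for 54987 genes. FPKM times length fell on whole steps, within 0.01 of a step, for 100% of values above 0 in every library, and the number of steps was taken as reads. PCR copies are not independent molecules, so these reads bound counting error only.

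Scaling by the median of ratios gave a factor of 1.0000 in every library, so the deposited values were already on that scale. They were tested as log2(FPKM + 1), which understates the change of low genes. Genes at 0.5 FPKM or more in at least 3 libraries were fitted with limma 3.58.1 in R 4.3.3 (mean-variance trend, all 3 groups, no covariate), with Benjamini-Hochberg adjustment over all genes tested and a threshold of 0.05. SE is limma's moderated standard error. Called, rose and fell mean past that threshold. Ccl19, Ccl21a and Itgam have more than 1 row in the file, of which the first on an assembled chromosome was used. The fit was tested on simulated data. Python 3.11.15, numpy 2.4.6, pandas 2.3.3 and matplotlib 3.10.9 were used for the rest.

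The members, gene lists and tests were chosen with earlier results of these data known. Named were all 9 members, and from each other list the genes past the threshold and otherwise up to 4 with the highest mean FPKM, and the 6 genes nearest in profile; values of Ccr8, Marco and the genes at 0 were added after they were seen. The results of some genes that this rule names are not reported here. Alternatives were another pseudocount (0.1), no filter, upper quartile scaling, 2 groups alone, array weights, voom on the recovered reads and leaving libraries out. A fit to FPKM as deposited only repeats the main fit, because the scaling left the values unchanged. Other motifs and lists were not analysed here.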

Additional observations from a re-analysis of the deposited data

Results flagged for a closer look

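Cxcl10, an interferon-induced ligand of Cxcr3 and no member of the 9, was at 77.44 FPKM in AIA 38. The other 3 AIA libraries held 7.364 to 16.05 FPKM. The gap to the nearest of them was 0.876 of the range of the group, above Dixon's 95% critical value for 4 libraries. It was the 1 gene of 29 to pass this value, and chance alone passes about 1 in 20 groups. None of the 9 CC chemokines passed it in AIA; the groups of 3 libraries were not examined in this way.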

How the results depend on the processing

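No paired analysis was possible because the groups share no replicate number. Members called between AIA and Control, 0 with all libraries, were 6 with only the 2 groups fitted, with array weights, without the libraries labelled Control 17 and Acu 4, and without these and AIA 10 (a setting added after seeing the data). They were 3 without these and Control 15, and 3 by voom without these. Leaving out 1 library gave 0 to 6, with 6 without Control 17 or without Acu 4. Genes called, 4 in all, were 0 with a pseudocount of 0.1, 1 without a filter, 785 with 2 groups, 3319 with array weights, 0 by voom, 2156 without the libraries labelled Control 17 and Acu 4 (1741 by voom), 443 without these and Control 15, 3398 without these and AIA 10, and 0 to 1713 with 1 library left out. Between Acu and AIA 0 members were called in any setting, and genes called were 2 without a filter, 98 with array weights and 0 to 1 with 1 library left out. Between Acu and Control members called were 4 with array weights, 2 without the libraries labelled Control 17 and Acu 4, 6 without these and AIA 10, and 0 to 2 with 1 library left out. Genes called there were 1 without a filter, 2067 with array weights, 698 and (by voom) 384 without those 2 libraries, 2096 without these and AIA 10, and 0 to 303 with 1 library left out.

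Signs turned in 1, 11 and 3 of the members' values in the 3 comparisons. Ccl5 turned to -0.295 between AIA and Control without the libraries labelled Control 17 and Acu 4 and Control 15. Between Acu and Control it turned to -0.711 in that setting, to -0.226 without Control 17 and to -0.333 without Acu 28 (-0.333 to 2.068 with 1 library left out). Between Acu and AIA array weights turned Ccl2 to 0.377, Ccl6 to 0.378 and Ccl7 to 0.145, and leaving out AIA 10 with the libraries labelled Control 17 and Acu 4 turned Ccl2 to 0.123 and Ccl6 to 0.296. Ccl6 also turned to 0.110 without AIA 10, 0.029 without AIA 38, 0.117 without Acu 4 (also with Control 17, and with Control 15, left out) and 0.121 by voom (-0.233 to 0.117 with 1 library left out). The cause was not tested. Control values of Ccl2, Ccl3, Ccl4, Ccl7 and Ccl12 rest on 6 to 64 reads, which limits their ratios.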
